A study of Mus musculus with 62 samples.

Results

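The earliest response of leg muscle to a cachexia-inducing melanoma was examined 2 weeks after the tumour cells were given. Cachexia is a loss of muscle and fat seen in many people with cancer. The comparison takes the 5 tibialis anterior libraries of mice that received melanoma cells labelled cachectic (CAC) and the 5 libraries of mock-injected mice, 10 of the 62 libraries of the series, over all genes measured. They were chosen by treatment and week alone, with no measured value involved. All mice were females labelled as 2 months old. The strain label reads C57BL6/J, whereas the series' design text names NCI Ath/nude mice, a strain without a thymus, and this disagreement cannot be settled from the labels. Transcripts of 11 T cell marker genes summed to between 0.0643 and 0.603 TPM in the 15 libraries of week 2. Another group at 2 weeks received melanoma cells labelled non-cachectic (NCAC, n = 5), and the later CAC and mock groups at 4, 6 and 8 weeks had n = 5 each, or n = 7 for CAC at 8 weeks. The labels do not name the species of the melanoma cells, the site of injection or any pooling of mice, and each CAC or NCAC group stands for 1 kind of cell as labelled.

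Values are TPM, the share of a gene's transcripts in a library scaled to a common total, and TPM is already divided by transcript length, so levels can be compared between genes. Differences are differences of mean log2(TPM + 1) from a limma model of all 62 libraries. A gene is named as called where its Benjamini-Hochberg adjusted p over 11107 tested genes was under 0.05. The smallest steps between low values gave an estimated depth of about 47000000 to 50500000 reads for the 15 libraries of week 2. At that depth the weakest library still held an estimated 73 reads of Socs3 and 273 of Jak3.

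Muscle fibres receive interleukin-6 family cytokines through receptors that share the gp130 chain. Janus kinases bound to the receptors phosphorylate STAT3, which enters the nucleus and switches on target genes, among them Socs3, whose product binds the receptor complex and the kinases and shuts the signal down. Jak3 works with the common gamma chain of the interleukin-2 receptor family and is best known from blood cells. Trim72, also called MG53, is a muscle protein that carries vesicles to torn stretches of the cell membrane, and its ubiquitin ligase activity acts on the insulin receptor pathway. Tmem176b encodes an ion channel-like membrane protein of antigen-presenting cells, and its neighbour Tmem176a encodes a close relative.

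The STAT dimer binds the palindrome TTCNNNGAA, so the start regions of the called genes were searched for it on both strands, which are equivalent for this motif. The windows run from 250 bases before to 50 bases after each start site listed by RefSeq (GRCm38.p6). Among the windows of Trim72, Jak3, Stat3, Socs3 and Tmem176b, the letters occur in the Socs3 window only, at positions -154 to -146 from a start site at chr11:117969366, on the minus strand. That start lies inside the Socs3 gene and its window overlaps Socs3 exons. Across 32851 windows of all genes, 8.30% hold the motif, and 9.55% of 27025 genes have it in at least 1 window. A match describes these letters and not a bound site. The stretch with the motif in capitals is shown for Socs3 because only its window held a match. Beside it stand the last 100 bases before the start sites of Stat3 and Trim72. These hold no match and are in lower case throughout.
Socs3, chr11:117969502-117969530, minus strand: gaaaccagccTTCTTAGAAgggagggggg
Stat3, chr11:100939541-100939640, minus strand: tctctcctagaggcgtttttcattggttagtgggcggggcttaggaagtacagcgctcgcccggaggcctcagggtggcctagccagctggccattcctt
Trim72, chr7:128004278-128004377, plus strand: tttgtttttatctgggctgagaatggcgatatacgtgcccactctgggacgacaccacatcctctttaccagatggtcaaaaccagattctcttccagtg

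Some libraries stood apart and are named before the results. Albumin (Alb), the main plasma protein made by liver, reached 1196 TPM in mock replicate 1 and 194 TPM in mock replicate 2. It lay between 1.37 and 51.7 TPM in the other mock libraries and between 0.173 and 14.1 TPM in CAC muscle. The 22 hepatocyte markers summed to 3197 TPM in mock replicate 1, 464 in mock replicate 2 and 158 in mock replicate 4, against 8.14 to 50.8 TPM in CAC muscle. The mean difference of -751 TPM did not pass an exact two-sided permutation test (p = 0.0635, where the smallest possible is 0.00794). Mitochondrially encoded genes took 40.4% to 49.0% of TPM in CAC libraries and 45.0% to 58.3% in mock libraries, with mock replicate 5 at the top (exact two-sided permutation p = 0.159). The median log2 difference of all genes was 0.13 and 85.0% of genes were positive. Rescaling by median-of-ratios size factors took that median to 0.00, so 0.13 is the level from which single changes are read. Each result below was also computed without mock replicates 1 and 2, called the liver-marked libraries.

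**Figure D1:**
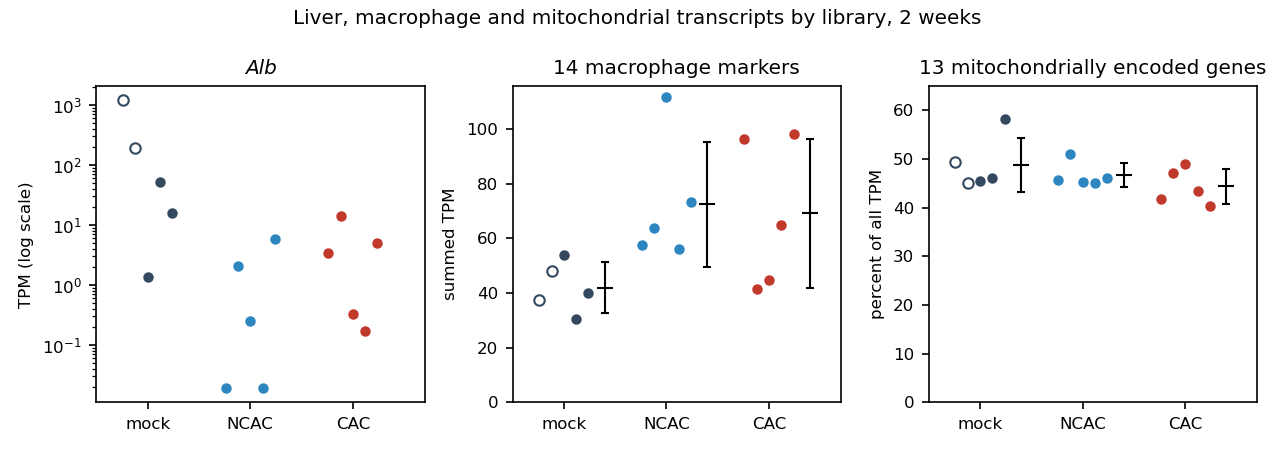
Each point is 1 library at 2 weeks, for mock, NCAC and CAC muscle, with Alb in TPM on a log axis, the summed TPM of 14 macrophage markers, and the percent of TPM in 13 mitochondrially encoded genes. Open points are the 2 mock libraries above 100 TPM of Alb, and bars beside the points give mean ± SD (n = 5). Alb reached 1196 TPM in a mock library and at most 14.1 TPM in CAC muscle.

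At 2 weeks few genes were called. In CAC muscle 6 genes of 11107 were called higher than in mock muscle (0.0540%) and none lower (0%). At an unadjusted p under 0.05 there were 892 higher (8.03%) and 62 lower (0.558%). The count of calls also depends on group size and on the spread pooled over all libraries. It therefore does not measure how many genes changed. The called genes included Trim72, Jak3, Stat3, Socs3 and Tmem176b. Without the liver-marked libraries 3 genes were called higher, all among the 6, and 0 lower (0.0270% and 0%).

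Trim72 had the smallest p. It stood at 146, 215, 199, 223 and 233 TPM in CAC replicates 1 to 5 and at 113, 112, 94.9, 109 and 78.9 TPM in mock replicates 1 to 5. The groups did not overlap, and CAC replicate 1 was the lowest of its group. The mean was 203 ± 34.2 TPM against 101 ± 14.5 TPM (SD, n = 5 each), with a log2 difference of 0.99 (SE 0.14, limma adjusted p = 3.82e-05). Without the liver-marked libraries it was 1.09 (adjusted p = 0.00015). The gene lies at chr7:128003462-128011393 on the plus strand (GRCm38). The start site used in the motif search lies inside this span, and the 250 bases before it overlap exons of Gm15533. Among protein-coding genes the nearest measured neighbour of Trim72 was Pycard, 9595 bases away. Pycard stayed below 1 TPM in every library of week 2.

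Jak3 was at 6.20, 10.1, 9.08, 6.44 and 7.77 TPM in CAC muscle and at 3.31, 2.64, 4.29, 3.58 and 2.48 TPM in mock muscle. Every CAC library was above every mock library. The mean was 2.43-fold higher, and the log2 difference was 1.06 (SE 0.17, limma adjusted p = 0.000213), or 1.00 without the liver-marked libraries (adjusted p = 0.0203). The gene lies at chr8:71676383-71690577 on the plus strand and overlaps Insl3, a hormone gene of the gonads, which was at 0 in 4 of 5 mock libraries and reached 0.838 TPM in CAC replicate 1. The common gamma chain partners of Jak3 held 6 tested genes of 13, with 0 called (0.0540% of all genes). Their median log2 difference was 0.12 against 0.13 for all genes.

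Stat3 stood at 14.01, 17.3, 24.6, 23.3 and 23.6 TPM in CAC muscle and at 10.01, 11.3, 10.7, 12.03 and 8.09 TPM in mock muscle. The groups did not overlap, and the first and second CAC replicates were nearest to the mock range. The log2 difference was 0.90 (SE 0.17, limma adjusted p = 0.0118). It was 0.92 without the liver-marked libraries, where the adjusted p of 0.0721 missed the threshold. The gene lies at chr11:100886806-100939594 on the minus strand, 1637 bases from Stat5a, which had a log2 difference of 0.19 (limma adjusted p = 0.592).

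Socs3 varied widely among CAC muscles. It was at 1.48, 3.87, 14.1, 5.19 and 6.17 TPM in CAC replicates 1 to 5 and at 1.47, 2.38, 1.12, 1.72 and 1.28 TPM in mock muscle. CAC replicate 1 lay inside the mock range, the other CAC libraries lay above it, and CAC replicate 3 was the highest. The log2 difference was 1.24 (SE 0.26, limma adjusted p = 0.0306, above the mock mean in 4 of 5 libraries), and 1.36 without the liver-marked libraries (adjusted p = 0.0721). With only the 2-week groups in the fit the call was lost (adjusted p = 0.28), and the equal spread the model assumes makes SE and p too small for CAC muscles this variable. The gene lies at chr11:117966079-117970336 on the minus strand.

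Tmem176b was at 10.5, 10.5, 19.4, 19.3 and 18.7 TPM in CAC muscle and at 8.61, 6.38, 8.57, 8.24 and 4.95 TPM in mock muscle. The groups did not overlap, with CAC replicates 1 and 2 close above the highest mock library. The log2 difference was 0.97 (SE 0.20, limma adjusted p = 0.024), and 1.00 without the liver-marked libraries (adjusted p = 0.0888). With only the 2-week groups in the fit the adjusted p was 0.116. The gene spans chr6:48833811-48845948 on the minus strand and overlaps Tmem176a on the plus strand. The library kit keeps strand, but whether the counting used it is not given, so reads in the overlap cannot be assigned to 1 of the genes. Tmem176a was at 2.78, 3.33, 5.57, 4.79 and 5.92 TPM in CAC muscle and at 3.38, 2.73, 2.35, 2.13 and 1.18 TPM in mock muscle. CAC replicates 1 and 2 overlapped the mock range, and the log2 difference of 0.71 did not pass (limma adjusted p = 0.11).

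Single libraries decided several of these calls. Leaving out CAC replicate 3, 4 or 5 ended the calls of Stat3, Socs3 and Tmem176b, with adjusted p between 0.0718 and 0.299, and 2 of the 6 genes were then called. The Socs3 call also ended without mock replicate 1 (adjusted p = 0.0898), and that of Tmem176b without mock replicate 2 (0.0631) or 5 (0.0516). Trim72 and Jak3 were called with any single library left out of the 10.

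**Figure D2:**
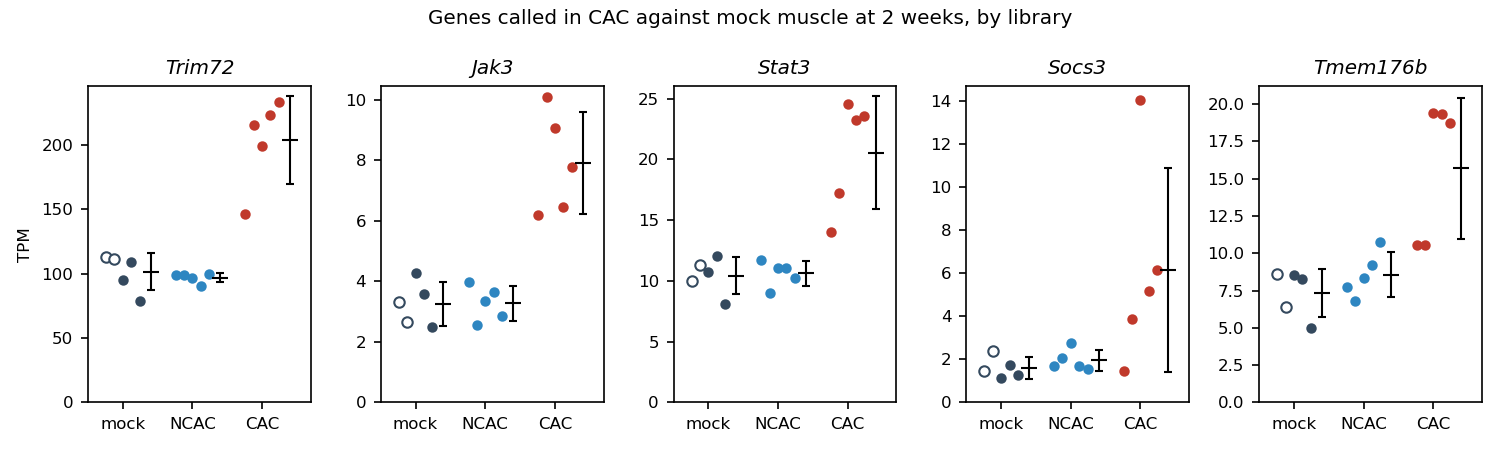
TPM of Trim72, Jak3, Stat3, Socs3 and Tmem176b in each library at 2 weeks, 1 point per library in replicate order, with mean ± SD (n = 5) beside each group. Open points are the liver-marked mock libraries. CAC points lie above all mock points except for Socs3, where CAC replicate 1 was at 1.48 TPM.

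The rest of the interleukin-6 family pathway was near the level of all genes. Of 8 tested ligands and receptors out of 13, 0 were called (0.0540% of all genes). Their median log2 difference was 0.19 against 0.13 for all genes. Il6, Il11, Lif and Osm, the cytokines themselves, were below the expression filter. Osmr, the oncostatin M receptor, was at 1.82, 2.36, 3.74, 2.60 and 2.63 TPM in CAC muscle and at 1.10, 2.13, 1.45, 1.77 and 1.13 TPM in mock muscle. CAC replicate 1 overlapped the mock range, and the log2 difference was 0.53 (limma adjusted p = 0.3). Il6st, which encodes gp130, was at 29.5 to 38.1 TPM in CAC muscle and 17.1 to 41.8 TPM in mock muscle, 0.29 on the log2 scale (limma adjusted p = 0.574).

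Among the kinases and STAT factors 2 of 10 tested genes, Jak3 and Stat3, were called higher and 0 lower (0.0540% and 0% of all genes). Of the others, Jak2 had a log2 difference of -0.06, Tyk2 of -0.05, Stat6 of 0.18 and Stat2 of 0.26, and none of these passed (limma adjusted p between 0.567 and 0.891). Jak1, the kinase most used by gp130, had 0.14 with the rescaled value at -0.00076. Stat5b was far more abundant than Stat3, at 68.5 to 106 TPM in CAC muscle. In mock muscle it ranged from 37.3 TPM in replicate 5 to 104 TPM in replicate 2. Per length, Jak1 (29.7 to 42.3 TPM in CAC muscle) and Jak2 (18.4 to 22.6 TPM) also stood above Jak3 in every CAC library.

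Of 10 tested feedback genes out of 12, Socs3 was the 1 called (0.0540% of all genes). The median log2 difference was 0.12 against 0.13 for all genes. Socs2, a brake on growth hormone signalling, ranged from 2.92 to 7.06 TPM in CAC muscle and from 2.02 to 9.27 TPM in mock muscle. Cish, which brakes STAT5, ranged from 0.795 to 6.33 TPM in CAC muscle and from 1.15 to 4.08 TPM in mock muscle. Both overlapped widely. Ptpn1, a phosphatase of JAK and insulin receptor signalling, had 7.14 to 9.25 TPM against 5.64 to 6.92 TPM with no overlap, yet a log2 difference of 0.28 that did not pass (limma adjusted p = 0.567).

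A list of other STAT3 target genes did not include Socs3, which was counted above as a feedback gene. Of its 23 tested genes 0 were called (0.0540% of all genes) and 19 were positive (85.0% of all genes). At an unadjusted p under 0.05, 4 were higher (8.03% of all genes). For 2 of the 23 all CAC libraries lay above all mock libraries (1.94% of all genes). The median log2 difference of the list was 0.24 against 0.13 for all genes, or 0.11 after rescaling. Bcl3, a nuclear IkB family member, had a log2 difference of 0.43 (limma adjusted p = 0.564). Mcl1, a survival factor, had 0.33, and Cebpd, a C/EBP transcription factor, had 0.85 with 5.18 to 17.8 TPM in CAC muscle and 3.08 to 4.93 TPM in mock muscle (limma adjusted p = 0.584). Cebpd was as variable in NCAC muscle, from 4.62 to 16.6 TPM. Tnfrsf1a, the TNF receptor, was at 16.8 to 23.2 TPM against 9.57 to 15.7 TPM. These ranges did not overlap, and its log2 difference of 0.50 had a limma adjusted p of 0.181.

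**Figure D3:**
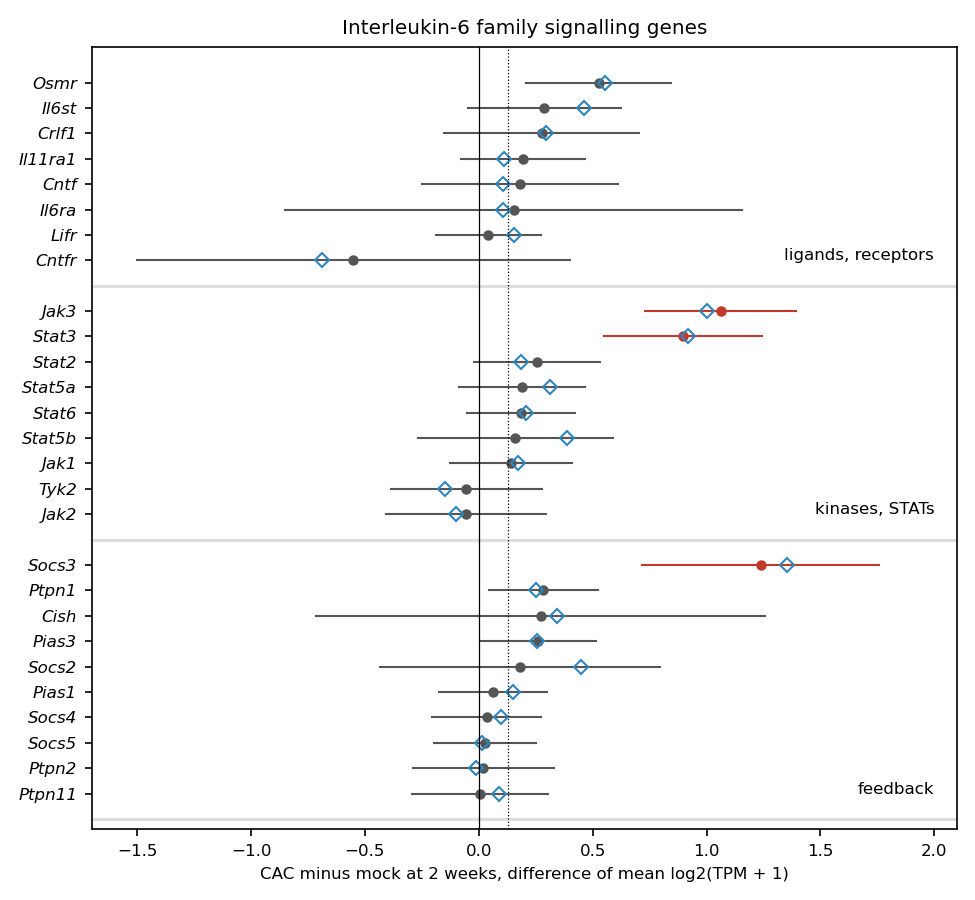
Log2 difference between CAC and mock muscle at 2 weeks for 27 tested ligands, receptors, kinases, STAT factors and feedback genes of the pathway, with 95% confidence intervals of the limma model as lines. Red marks called genes, blue diamonds the value without the liver-marked libraries, and the dotted line the median of all genes at 0.13. Jak3, Stat3 and Socs3 have the largest differences of the 27, between 0.90 and 1.24.

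Of 20 tested membrane repair genes 1, Trim72, was called (0.0540% of all genes), 3 had CAC libraries all above mock libraries (1.94% of all genes), and the median log2 difference was 0.21 against 0.13. Anxa6, an annexin that gathers at membrane tears, was at 120, 142, 147, 147 and 130 TPM in CAC muscle and at 102, 114, 94.8, 98.5 and 57.5 TPM in mock muscle. The groups did not overlap, and the log2 difference of 0.58 did not pass (limma adjusted p = 0.117). Cav3, the muscle caveolin, had 66.7 to 80.2 TPM against 44.8 to 65.9 TPM and a log2 difference of 0.39 (limma adjusted p = 0.567). Dysf, which encodes dysferlin, overlapped between groups, with 0.32.

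The ligases of muscle wasting did not pass the test. Of 24 tested ubiquitin ligases and partners of muscle 0 were called (0.0540% of all genes). The median log2 difference was 0.14 against 0.13 for all genes. Trim63, the ligase MuRF1 that tags thick-filament proteins, ranged from 113 to 174 TPM in CAC muscle and from 98.4 to 148 TPM in mock muscle. Its log2 difference was 0.14 (SE 0.56), and rescaling turned its sign to -0.0032. Fbxo32, which encodes atrogin-1, ranged from 54.7 to 119 TPM and from 34.3 to 125 TPM, with a log2 difference of 0.10 (SE 0.56) that also turned negative on rescaling, to -0.040. These SE come from the spread pooled over all 62 libraries, and with only the 2-week groups in the fit the limma adjusted p was 0.577 for Trim63 and 0.879 for Fbxo32. Mt1 and Mt2, the metal-binding metallothioneins, had log2 differences of 0.41 and 0.75 (limma adjusted p = 0.801 and 0.72), and Mt2 in CAC muscle ran from 6.06 TPM to 28.5 TPM in replicate 3.

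Markers of other cells were summed in each library, and no gene among them was called. The 14 macrophage markers summed to 96.2, 41.5, 44.8, 64.8 and 98.1 TPM in CAC muscle and to 37.5, 48.0, 53.9, 30.4 and 40.1 TPM in mock muscle. CAC replicates 1, 4 and 5 were above the mock range and replicates 2 and 3 inside it. Of the 11 tested markers 0 were called (0.0540% of all genes) and 10 were positive (85.0% of all genes). At an unadjusted p under 0.05, 6 were higher (8.03% of all genes). The median log2 difference was 0.44 against 0.13 for all genes. C1qa and Cd68, defining macrophage genes, reached at most 15.2 and 3.53 TPM in CAC muscle. In NCAC muscle the sum ran from 56.0 to 112 TPM. In whole muscle more cells of a type and more RNA per cell cannot be told apart, and the part of macrophage transcripts in the differences of Tmem176b and Jak3 was not tested. Tendon cell markers summed to 41.9 to 216 TPM in CAC muscle and 36.2 to 101 TPM in mock muscle. Their 6 tested genes were all positive (85.0% of all genes), with a median log2 difference of 0.54 against 0.13 for all genes. Without the liver-marked libraries that median was 0.37, and at 4 weeks it was -0.62. B and plasma cell markers summed to 24.6 to 93.5 TPM in CAC muscle and 51.7 to 193 TPM in mock muscle, and fibroadipogenic markers to 483 to 1023 TPM and 432 to 672 TPM. All 3 of these sums overlapped between the groups, and their differences were not tested. Neutrophil markers summed to 2.66 to 5.35 TPM in CAC muscle and 3.67 to 8.49 TPM in mock muscle. The 7 erythroid genes had means of 792 and 860 TPM (exact two-sided permutation p = 0.778).

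Genes outside these lists had non-overlapping groups without passing the test. All 5 CAC libraries lay above all 5 mock libraries for 216 of 11107 genes (1.94%) and below them for 3 (0.0270%). After rescaling the counts were 52 (0.468%) and 45 (0.405%). Lgmn, the lysosomal protease legumain, was at 23.2, 24.2, 27.4, 26.5 and 26.3 TPM in CAC muscle and at 18.0, 20.4, 20.0, 18.4 and 17.9 TPM in mock muscle, with a log2 difference of 0.41 (limma adjusted p = 0.0533). This small difference went with a narrow spread, and the ranges overlapped once rescaled. Grrp1 had 3.72 to 9.97 TPM against 2.71 to 3.38 TPM and a log2 difference of 0.83 (limma adjusted p = 0.06). Aaas, a nuclear pore gene, had 5.81 to 7.71 TPM against 3.32 to 4.91 TPM, with a log2 difference of 0.50 (limma adjusted p = 0.0628), and it was called after rescaling at 0.38 (adjusted p = 0.00774). Naprt, an enzyme of NAD synthesis, had 6.70 to 8.11 TPM against 3.99 to 6.09 TPM. Ptp4a3, a phosphatase, had 349 to 445 TPM against 236 to 338 TPM. Atp9a, a phospholipid flippase, missed the threshold narrowly at a log2 difference of 0.74 (limma adjusted p = 0.0533), with CAC replicate 1 at 9.20 TPM inside the mock range of 6.05 to 11.8 TPM. Csf2rb2 and Csf2rb, receptor chains for interleukin-3 family cytokines, had 0.74 and 0.65 (limma adjusted p = 0.122 and 0.381). They are near-identical copies, so the split of reads between them is uncertain.

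Decreases were few on the TPM scale, where all CAC libraries lay below all mock libraries for 3 genes. After rescaling they did so for 45 genes and lay above for 52, so this scarcity depended on the scale. Actc1, the cardiac actin that is also made by immature muscle fibres, was at 54.6, 52.4, 68.7, 38.8 and 40.7 TPM in CAC muscle and at 118, 57.1, 243, 262 and 336 TPM in mock muscle. The liver-marked mock replicate 2 overlapped the CAC range, and the log2 difference of -1.75 (SE 0.56) did not pass (limma adjusted p = 0.381). Without the liver-marked libraries the 5 CAC libraries lay below the other 3 and the difference was -2.45 (adjusted p = 0.16). In that setting 0.261% of all genes were below and 6.34% above without overlap. Cd24a, a surface glycoprotein, had 110 to 133 TPM against 142 to 174 TPM without overlap (log2 difference -0.29, limma adjusted p = 0.578). Trmt2b, a mitochondrial RNA methyltransferase, had 7.81 to 9.81 TPM against 9.84 to 11.2 TPM.

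NCAC muscle at 2 weeks gives these levels in mice with the other melanoma cells. Trim72 was at 98.8, 98.7, 96.4, 90.6 and 99.5 TPM in NCAC muscle, inside the mock range, and below every CAC library. All CAC libraries lay above all NCAC libraries for 2.62% of genes and below them for 0.135%. Jak3 ranged from 2.55 to 3.96 TPM, Stat3 from 8.998 to 11.8 TPM, Socs3 from 1.57 to 2.76 TPM and Tmem176b from 6.80 to 10.8 TPM. The log2 difference between NCAC and mock muscle was -0.06 for Trim72 (95% interval -0.34 to 0.23), 0.01 for Jak3 (-0.32 to 0.34) and 0.03 for Stat3 (-0.32 to 0.38). It was 0.20 for Socs3 (-0.33 to 0.72) and 0.21 for Tmem176b (-0.19 to 0.60). In CAC against NCAC muscle 7 of 11107 genes were called higher (0.0630%) and 0 lower. These included Trim72 (log2 difference 1.05, limma adjusted p = 8.72e-06), Jak3 (1.05, adjusted p = 0.000272) and Stat3 (0.87, adjusted p = 0.0129). Socs3 at 1.04 (limma adjusted p = 0.164) and Tmem176b at 0.77 (0.178) did not pass. Both comparisons use the same CAC libraries, so the second is not independent of the first.

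NCAC against mock muscle had 0 genes called higher and 18 lower (0.162%), with 1.29% higher and 1.24% lower at an unadjusted p under 0.05. All 18 were highest in mock replicate 1, and 9 are hepatocyte markers. Without the liver-marked libraries 0 genes were called in either direction, with 165 higher (1.49%) and 81 lower (0.729%) at an unadjusted p under 0.05.

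The called genes were followed to later weeks, whose mice and mock libraries are separate from those at 2 weeks. The model's estimate of each gene's spread is shared by all weeks. All 6 genes called at 2 weeks were also called higher at 4, 6 and 8 weeks, where 99 (0.891%), 6741 (60.7%) and 7707 (69.4%) of 11107 genes were called higher and 0.0450%, 3.26% and 5.09% lower. After rescaling the shares called higher were 0.882%, 16.9% and 24.9%. The shares of all genes called lower after rescaling are not given here, and rescaling can raise such calls. Of 72 tested nuclear genes of mitochondrial oxidative phosphorylation, 37 were called lower and 7 higher at 8 weeks. After rescaling these counts were 68 and 0. The median log2 difference of all genes was 0.11, 0.38 and 0.46 at 4, 6 and 8 weeks. Trim72 had log2 differences of 1.00, 1.18 and 1.39 at 4, 6 and 8 weeks, and Jak3 1.06, 1.73 and 1.72. Stat3 had 1.37, 1.95 and 2.09, Tmem176b 1.55, 2.60 and 2.92, and Socs3 2.96, 4.14 and 4.21.

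Socs3 in CAC muscle averaged 6.15 ± 4.76 TPM at 2 weeks, 20.6 ± 6.77 at 4 weeks, 44.5 ± 11.9 at 6 weeks (SD, n = 5 each) and 58.7 ± 18.0 TPM at 8 weeks (n = 7), while the mock means lay between 1.54 and 2.13 TPM. The lowest CAC library at 4 weeks, at 12.4 TPM, was above 4 of the 5 CAC libraries at 2 weeks. The test of the difference between weeks (CAC minus mock at the later week, less the same at 2 weeks) gave 1.72 at 4 weeks (limma adjusted p = 0.209), 2.90 at 6 weeks (1.38e-06) and 2.97 at 8 weeks (7.86e-08). Stat3 grew by 1.05 by week 6 (limma adjusted p = 0.00449) and by 1.20 by week 8 (0.000233), and Tmem176b by 1.63 (0.000146) and 1.94 (1.3e-06). After rescaling the tests at 6 and 8 weeks passed for all 3 genes, and Socs3 at 4 weeks did not (adjusted p = 0.173). Of all genes, 11.2% passed as larger and 0.603% as smaller at 6 weeks, and 36.4% and 2.57% at 8 weeks. After rescaling the larger ones were 2.71% and 9.10%, and the shares of smaller ones are not given here.

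Trim72 did not pass the same test. Its difference had grown by 0.19 at 6 weeks (limma adjusted p = 0.49) and by 0.40 at 8 weeks (0.0887), and by 0.02 at 8 weeks once rescaled. Jak3 grew by 0.66 by week 8 (limma adjusted p = 0.0198), but by 0.32 after rescaling (adjusted p = 0.311). At 4 weeks no gene passed the test of the difference from 2 weeks (limma, 0 of 11107 called, 0%, with 115 higher, 1.04%, and 174 lower, 1.57%, at an unadjusted p under 0.05).

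The 99 genes called higher at 4 weeks were then read at 2 weeks, in other mice. The p-values of both weeks rest on the same spread of each gene over all 62 libraries and are not independent. Of the 99 genes, 97 had a positive log2 difference at 2 weeks (85.0% of all genes were positive). At an unadjusted p under 0.05, 60 were higher (8.03% of all genes). For 27 of the 99 all CAC libraries lay above all mock libraries (27.3%, against 1.94% of all genes), and their median log2 difference was 0.40 against 0.13. After rescaling 93 were positive (51.4% of all genes) and 9 had all CAC above all mock libraries (0.468% of all genes). Among them are Grrp1, with a log2 difference of 0.83 at 2 weeks and 1.56 at 4 weeks, Atp9a with 0.74 and 1.51, and Tnfrsf1a with 0.50 and 0.78.

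**Figure D4:**
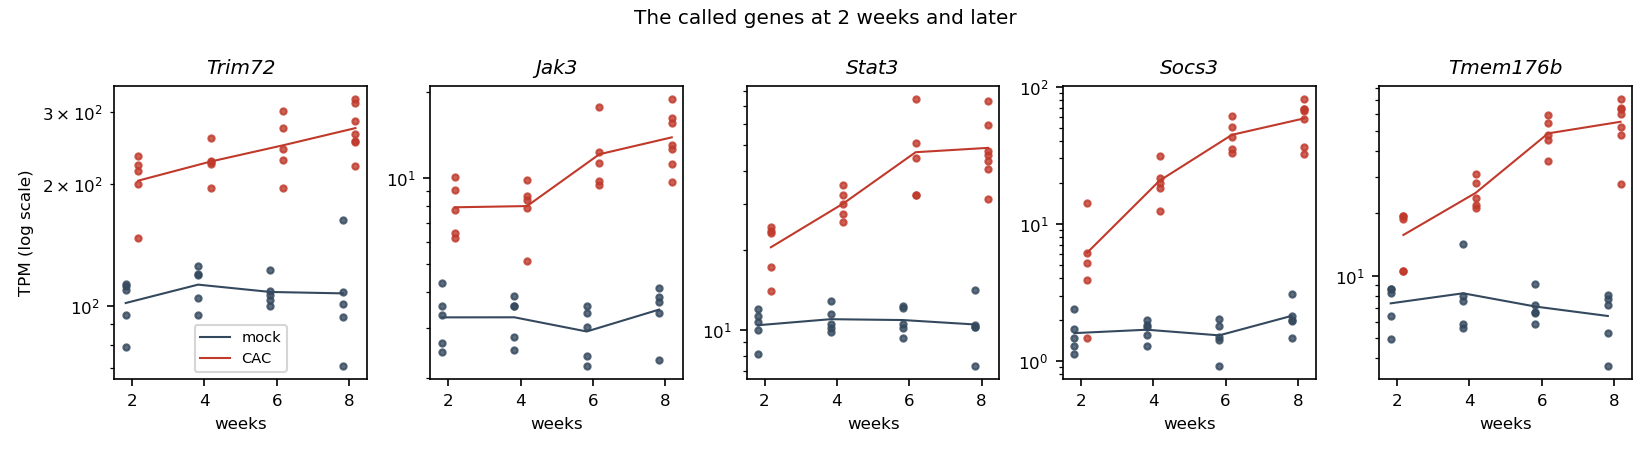
TPM on log axes of the called genes in CAC (red) and mock (dark) libraries at 2, 4, 6 and 8 weeks, 1 point per library (n = 5 per group, 7 for CAC at 8 weeks), with lines through the group means. Socs3 means in CAC muscle run from 6.15 TPM at 2 weeks to 58.7 TPM at 8 weeks, while those of Trim72 run from 203 to 274 TPM.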

How the data were processed

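RNA of tibialis anterior muscle was sequenced with the TruSeq stranded mRNA kit on a NovaSeq machine, per the labels' protocols, which also refer to another experiment with LLC cells. The authors deposited 1 table of TPM for 62 libraries, and no count or fold change of theirs was used. Per the submitters' processing notes the genome was mm10. The aligner, the read counter and whether it used strand are not given in the sources used. TPM fixes each library's total, so a smaller mitochondrial or liver share raises the values of all other genes. TPM keeps no depth, and the depth was estimated from the smallest steps of TPM times exon length (GENCODE M21), where 82.2% to 84.6% of values between 0.5 and 5 reads were whole within 0.05 reads. No count test was run.

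Genes averaging 1 TPM or more over all libraries were kept (11107 of 47643). Values were transformed to log2 of TPM plus a pseudocount of 1 and fitted with limma 3.58.1 (R 4.3.3). The model had 12 groups, 50 residual degrees of freedom and trended moderation. The code was run on simulated data with known changes and, for each gene, the same spread in all groups. That run cannot show how the model does where the spread is unequal or a library holds liver transcripts. Folds are ratios of mean TPM, and log2 differences understate changes of weak genes. The spread is taken as equal in all groups, so where CAC muscles vary more, as for Socs3, SE and p are too small. The hepatocyte and erythroid sums and the mitochondrial share were tested by exact permutation, and other marker sums are given without a test. The protocols call the libraries biological replicates and the labels name no batch.

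The members, the lists, the tests and the rule for named genes were chosen with earlier results of these data known, and the tests of weeks 6 and 8 against week 2 were added after the data were seen. That rule takes genes called at 2 weeks, uncalled genes with non-overlapping groups and the smallest p, the interleukin-6 family lists and a fixed panel, the leading members of other lists, marker genes and neighbours. Cav3, Dysf, Mcl1, Myof and Wbscr17 were picked after their values were seen. The result of 1 called gene is not reported here. Alternatives were a pseudocount of 0.1, no filter, median-of-ratios rescaling, only the compared weeks, no trend, a replicate block, no mitochondrially encoded genes, no mock libraries above 100 TPM of Alb, and each library left out. Promoter windows came from RefSeq and matched all 5 genes. Python 3.11.15, numpy 2.4.6, pandas 2.3.3, scipy 1.17.1 and matplotlib 3.10.9 were used.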

Additional observations from a re-analysis of the deposited data

Results flagged for a closer look

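Results here were singled out for 1 library lying far from the other 4 of its group, or for a tested difference between groups. Of 163 groups of 5 libraries examined, 21 had such a library. Chance marks about 1 in 20 groups where values are independent and normally distributed. The values here were untransformed TPM of genes that can vary together. The liver genes were also examined with the liver transcripts of mock replicate 1 already known. The count of 21 therefore cannot be set against that rate. No explanation was tested for any of them.

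In mock replicate 1 the liver genes Alb (1196 TPM), Apoa2 (405 TPM), Hamp (42.7 TPM), Apoc3 (44.5 TPM), Cyp3a11 (99.2 TPM) and Hpx (59.0 TPM) stood far above the other mock libraries, and the hepatocyte sum was 3197 TPM. Serpina3n, an acute-phase gene, was also highest there at 12.3 TPM, and Insl3 was at 0.479 TPM where the other mock libraries were at 0. In mock replicate 5 Stat5a (2.19 TPM), Stat5b (37.3 TPM) and Serping1 (19.1 TPM) were far below the other mock libraries.

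In CAC replicate 3 Mt2 (28.5 TPM), Serpina3n (6.68 TPM), Pycard (0.878 TPM) and the erythroid sum (1165 TPM) were far above the other CAC libraries. In CAC replicate 5 Ptpn1 (9.25 TPM), Capn2 (21.96 TPM) and Myof (2.83 TPM) were highest. Fbxo32 reached 119 TPM in CAC replicate 4, and Cd24a was lowest at 110 TPM in CAC replicate 1.

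The difference from mock muscle differed between CAC and NCAC at 2 weeks, by limma with adjusted p under 0.05, for Trim72 (1.05 on the log2 scale), Jak3 (1.05), Stat3 (0.87), Abtb2 (0.90), Wbscr17 (0.75) and Naprt (0.56). Abtb2 and Wbscr17 lay lower in NCAC than in mock muscle, by -0.55 and -0.39, and neither of those differences passed. Between weeks the CAC minus mock difference was larger than at 2 weeks for Stat3 by 1.05 at 6 weeks and 1.20 at 8 weeks, for Socs3 by 2.90 and 2.97, and for Tmem176b by 1.63 and 1.94. For Jak3 it was larger by 0.66 at 8 weeks, which did not pass after rescaling (limma adjusted p = 0.311).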

How the results depend on the processing

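The count of genes called in CAC against mock muscle at 2 weeks depended on the setting. It was 6 as reported, 12 without an expression filter (8 higher, 4 lower), 12 after rescaling (6 and 6), 13 without mitochondrially encoded genes (6 and 7), 3 with only the 2-week groups in the fit and 3 without the liver-marked libraries. The 6 lower genes after rescaling were all highest in mock replicate 1. Leaving out each library gave 2 to 37 genes: 2 without CAC replicate 3, 4 or 5, 10 without CAC replicate 1, 16 without CAC replicate 2, 37 without mock replicate 3 (9 higher, 28 lower), 11 without mock replicate 4 and 24 without mock replicate 5 (4 higher, 20 lower). The cause was not tested. Trim72 and Jak3 were called under every one of these settings.

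NCAC against mock muscle had 18 genes called as reported, 6 with a pseudocount of 0.1, 117 without a filter, 0 with only the 2-week groups, 0 without the liver-marked libraries, and 0 to 39 with 1 library left out. CAC against NCAC muscle gave 2 to 11 with 1 library left out. Genes called at 2 weeks that were also called at 4, 6 and 8 weeks numbered 6 at each, 3 at each without the liver-marked libraries, 3 at 6 weeks and 2 at 8 weeks in fits of the compared weeks alone, and 2 to 10 with 1 library left out. The difference between 4 and 2 weeks had 0 genes called, and 0 to 1 with 1 library left out.

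Replicate numbers are shared between groups, but the deviations of same-numbered CAC and mock libraries correlated between -0.244 and -0.137, and none of these correlated best with its own number. Between CAC and NCAC libraries the correlations ran from -0.193 to 0.332, and numbers 1, 2 and 5 correlated best with their own. Since not every pair was above 0.1, the numbers were not taken to pair the samples. With a replicate block 7 genes were called in CAC against mock muscle, 2 in NCAC against mock muscle and 6 in CAC against NCAC muscle.

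The hepatocyte sum differed by -751 TPM, and by -943 to -146 TPM with 1 library left out (exact permutation p = 0.0159 without mock replicate 3). The mitochondrial share differed by -4.48 percentage points (-5.64 to -2.11), and the erythroid sum by -68.1 TPM (-168 to 59.1, positive without mock replicate 4). Small differences of uncalled genes changed sign. After rescaling Jak1 was at -0.00076, Trim63 at -0.0032 and Fbxo32 at -0.040. Without mitochondrially encoded genes Fbxo32 was at -0.019, and without the liver-marked libraries Lcn2 was at 0.032. With 1 library left out the range was -0.12 to 0.57 for Serpina3n, -0.12 to 0.34 for Fbxo32, -0.31 to 0.024 for Lcn2, -0.15 to 0.016 for Tyk2, -0.032 to 0.41 for Socs2 and -0.11 to 0.26 for Stat5b. Of the other values for named genes under these settings, 1247 kept direction and side of the threshold, 17 lost the call and 35 gained one. Depth was an estimate and gave no limit to a zero value.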
